A study of Mus musculus with 3 samples.

Results

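Natural killer cells were picked out of single-cell RNA profiles of mouse peripheral blood mononuclear cells as the barcodes that held receptor RNA of this lineage and no RNA of the CD3 complex. A barcode tags 1 droplet, and a unique molecular identifier (UMI) marks 1 captured RNA molecule. A kept barcode had 500 or more UMIs, 250 or more genes and no more than 10% of its UMIs from mitochondrial genes. A kept barcode counted as natural killer with 2 or more UMIs of Ncr1, Klrb1c and Klre1 together, 0 of Cd3d, Cd3e and Cd3g, and at most 1 of Cd79a. This rule took 760 of 31064 kept barcodes, called NK barcodes here. They were thus chosen by the measured UMIs of these 7 genes, whose levels are no finding. The 3 libraries, 1 per group, came from C57BL/6 mice: aged mice given AA over 1 month (aged+AA), aged mice given PBS over the same time (aged), and young mice given PBS over the same time (young). AA is ascorbic acid by the series title, which speaks of middle-aged mice. The labels give no age in months, dose, sex or number of mice per library, and all 3 groups carry the same strain label as genotype.

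Natural killer cells are innate lymphocytes that kill infected or transformed cells with granules of perforin and granzymes and that secrete chemokines and interferon gamma. Their activity is set by activating and inhibitory receptors, many of which read MHC class I on the cell they meet. In the mouse the Ly49 receptors, encoded by the Klra genes, do this, and each cell carries its own subset of them. Mouse natural killer cells in blood mature from a stage with the receptor Cd27 to a stage with the integrin Itgam (CD11b), with rising Zeb2, Klrg1, S1pr5 and Cx3cr1.

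The aged+AA library gave 180 NK barcodes, the aged library 264 and the young library 316, with summed depths of 653303, 1121976 and 1073253 UMIs. Their median depths were 3361 UMIs in aged+AA, 3338 UMIs in aged and 3026.5 UMIs in young, and the libraries shared 0 NK barcodes. Counts were summed over the NK barcodes of a library and scaled to a common total (counts per 1e6, CPM), and ratios compare these sums. As each group is 1 library, differences could not be checked over replicates, and none was tested. The 95% intervals in parentheses (exact binomial for shares, exact Poisson for CPM, exact conditional binomial for ratios) cover counting error only. A gene is called higher or lower where its ratio passed 1.5-fold, among the 2682 genes with at least 150 UMIs over the 3 libraries. Of these genes, 7.01% were higher and 7.76% lower in aged than in young. For aged+AA over aged, 4.14% were higher and 4.47% lower. Counts of list genes below are to be set beside these shares.

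Set beside B cell barcodes, the label fitted the RNA of lineage genes that the rule had not used. Gzma, granzyme A, had a UMI in 95.6% of aged+AA, 93.9% of aged and 97.8% of young NK barcodes, against 2.96%, 4.03% and 2.01% of the B cell barcodes in the same order of libraries. Prf1, the pore-forming perforin, had a UMI in 77.8% of aged+AA, 86.7% of aged and 88.0% of young NK barcodes, against 1.11%, 1.28% and 1.23% of B cell barcodes (2 or more UMIs of Cd79a and 0 of the Cd3 genes, median depths 3564, 3185 and 3430.5 UMIs). T cells with killer genes were set apart less. Barcodes with the same receptor UMIs but also a Cd3 UMI held Gzma in 26.4% in aged+AA, 43.1% in aged and 57.8% in young. No UMI of the T cell genes Trac, Cd4, Cd8a and Cd8b1 was found in 161 of 180 aged+AA, 247 of 264 aged and 300 of 316 young NK barcodes. Close to the threshold the label was weaker. Of barcodes with 1 UMI of the 3 receptor genes, just outside the rule, Gzma was found in 17 of 29 in aged+AA, 15 of 37 in aged and 9 of 12 in young. Of those with 2, just inside it, Gzma was found in 15 of 18, 9 of 13 and 21 of 23. A list of innate lymphoid type 1 genes, such as Cxcr6 and Itga1, stayed low, at 110.2 CPM in aged+AA, 207 CPM in aged and 113 CPM in young over its 15 genes, with 0 genes at the 150 UMI minimum.

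Some NK barcodes also held RNA of other blood cells, and the aged library had the most. An NK barcode was called mixed with 5 or more UMIs of the myeloid genes Lyz2, S100a8, S100a9 and Csf1r, over 5% haemoglobin UMIs, or 10 or more UMIs of Cd74, H2-Aa, H2-Ab1 and H2-Eb1, limits that were set after the data were seen. There were 10 mixed barcodes of 180 in aged+AA, 40 of 264 in aged and 6 of 316 in young. Of these, 1 in aged+AA, 15 in aged and 0 in young were rich in myeloid RNA, and the 15 aged barcodes held 3271 of the 3577 myeloid UMIs of that library's NK barcodes. Haemoglobin made up 7.52% of the aged+AA sum, 8.74% of the aged sum and 4.42% of the young sum, and 0.309%, 0.769% and 0.130% without the mixed barcodes. Any of the 4 myeloid genes was seen in 10.6% of aged+AA, 70.5% of aged and 1.90% of young NK barcodes. Without the mixed barcodes Lyz2, lysozyme of myeloid cells, stood at 7.04 CPM in aged+AA, 118 CPM in aged and 3.98 CPM in young, beside 6.02 (aged+AA), 119 (aged) and 2.34 (young) CPM that the free RNA of each library would supply at the free RNA share of its median NK barcode (2.57%, 3.21% and 1.24%). Over whole marker lists, T cell genes other than the excluded Cd3 genes summed to 848 CPM in aged+AA, 699.7 CPM in aged and 743 CPM in young, and B cell genes to 572, 857 and 179.8 CPM, or 621, 451 and 139 CPM without the mixed barcodes. Genes of basophils, dendritic cells and platelets summed to 45.9, 95.4 and 46.6 CPM, with Mcpt8 and Siglech at 0 UMIs. The ratios below use all NK barcodes, and where a printed call changed without the mixed barcodes that value is given too.

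**Figure D1:**
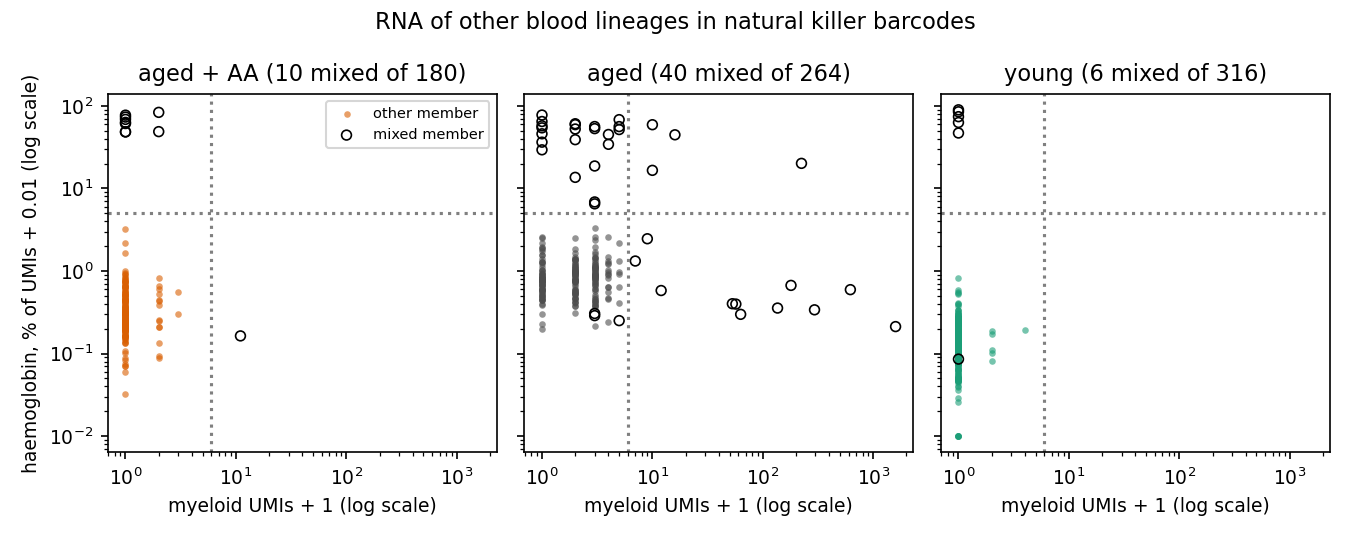
RNA of other blood lineages in each NK barcode, with UMIs of 4 myeloid genes plus 1 on the x axis (log scale) and the percentage of haemoglobin UMIs plus 0.01 on the y axis (log scale), 1 panel per library. Open circles are the mixed barcodes, 10 of 180 in aged+AA, 40 of 264 in aged and 6 of 316 in young, and dotted lines mark 5 myeloid UMIs and 5% haemoglobin.

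NK barcodes made up 1.54% (1.32 to 1.78) of kept aged+AA barcodes, 2.59% (2.29 to 2.91) of kept aged barcodes and 3.45% (3.09 to 3.85) of kept young barcodes. The share in aged+AA was 0.594 times (0.489 to 0.721) that in aged, and the share in aged was 0.749 times (0.634 to 0.885) that in young. Shares of all kept barcodes move with every other cell type, so they were also taken among T, B and NK barcodes only. There they were 1.79% in aged+AA, 3.63% in aged and 3.74% in young, a ratio of 0.494 (0.407 to 0.600) for aged+AA over aged and of 0.969 (0.820 to 1.14) for aged over young. With mitochondrial UMIs held to 5%, which 8091 aged+AA, 9656 aged and 4037 young barcodes met, the aged over young ratio was 0.380. Leaving out every NK barcode with a myeloid UMI left 161 in aged+AA, 78 in aged and 310 in young and turned the aged+AA over aged ratio to 1.80, and the part of free RNA in that was not tested. Only NK barcodes were left out there, and the denominators stayed at 11713, 10204 and 9147 kept barcodes. A myeloid UMI was held by 10.6% of aged+AA, 70.5% of aged and 1.90% of young NK barcodes, so this turn follows from those shares and is no separate result. In free RNA, Lyz2 stood at 235 CPM in aged+AA, 3691 CPM in aged and 189 CPM in young. Barcodes with the same receptor UMIs but also a Cd3 UMI were more frequent in aged+AA, with 379 such barcodes there (3.24% of kept barcodes), 248 in aged (2.43%) and 135 in young (1.48%). A UMI of Cd8a or Cd8b1 was found in 61.7% of them in aged+AA, 55.2% in aged and 40.7% in young. Ncr1 was found in 11.3% of them in aged+AA, 19.8% in aged and 38.5% in young. Just 1 Cd3 UMI was held by 24 of them in aged+AA, 27 in aged and 20 in young. Whether the rule left out natural killer cells unequally between the libraries was not tested.

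The Ly49 receptor genes were among the genes that differed most in NK barcodes. Klra4 encodes the activating receptor Ly49D and had 837 CPM in aged+AA, 405 CPM in aged and 1071 CPM in young. It was lower in aged than in young NK barcodes, at 0.378 (0.338 to 0.422) times, and higher in aged+AA than in aged, at 2.07 (1.82 to 2.35) times. Its UMIs came from 95 aged+AA, 100 aged and 183 young barcodes, and no barcode held over 4.63% of them. After each barcode was thinned to 1000 UMIs, Klra4 was seen in 40.9% (33.5 to 48.7) of aged+AA, 27.5% (22.2 to 33.4) of aged and 47.1% (41.4 to 52.8) of young NK barcodes, against 0.0812%, 0.160% and 0.206% of thinned B cell barcodes. So the aged library stood below the other two both in the share of NK barcodes with Klra4 and in the summed level.

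Klra9, the inhibitory receptor Ly49I, followed the same order with 563 CPM in aged+AA, 299 CPM in aged and 691 CPM in young. Its ratios were 1.89 (1.62 to 2.19) for aged+AA over aged and 0.432 (0.378 to 0.492) for aged over young. Klra8, the activating receptor Ly49H that binds a cytomegalovirus protein, had 600.0 CPM in aged+AA, 463 CPM in aged and 854 CPM in young. Its aged over young ratio was 0.541 (0.485 to 0.604), and its aged+AA over aged ratio of 1.30 (1.13 to 1.48) stayed under 1.5-fold. Klra3, Ly49C, was lower in aged than in young at 0.569 (0.465 to 0.695) times, but at 0.675 (0.547 to 0.832) times without the mixed barcodes, short of 1.5-fold. Klra7, Ly49G, differed by less than 1.5-fold in both comparisons, at 1.29 times for aged+AA over aged and 0.838 times for aged over young. Klra1, Ly49A, went another way: it had 223 CPM in aged+AA, 113 CPM in aged and 86.7 CPM in young, with ratios of 1.97 (1.55 to 2.52) for aged+AA over aged and 1.31 (0.992 to 1.73) for aged over young.

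The aged over young ratios of Klra4, Klra8 and Klra9 stayed lower without the mixed barcodes, at 0.437, 0.596 and 0.5 times. The aged+AA over aged ratios of Klra4, Klra9 and Klra1 stayed higher without them, at 1.86, 1.66 and 1.89 times. The Ly49 genes are near copies of each other, and 3' counts can be split or lost between copies. Of the words of 50 bases in the last 500 bases of their transcripts, 4.66% of those of Klra4, 13.1% of Klra8, 49.4% of Klra9, 31.5% of Klra3, 22.1% of Klra7 and 5.76% of Klra1 occurred in another gene. The levels of Klra9 and Klra3 are therefore the least certain, and those of Klra4 and Klra1 the most.

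The promoters of the receptors that were lower in aged NK barcodes are shown as aligned pairs, since Klra4 with Klra8 and Klra9 with Klra3 are the closest copies there. Each window runs from 250 bases before to 50 bases after the gene start in the RefSeq annotation of GRCm38.p6, and capitals mark the bases that differ from the aligned partner. All 4 lie on the minus strand of chromosome 6, at chr6:130067222-130067521 for Klra4, chr6:130129849-130130148 for Klra8, chr6:130193063-130193362 for Klra9 and chr6:130337577-130337876 for Klra3.
Klra4: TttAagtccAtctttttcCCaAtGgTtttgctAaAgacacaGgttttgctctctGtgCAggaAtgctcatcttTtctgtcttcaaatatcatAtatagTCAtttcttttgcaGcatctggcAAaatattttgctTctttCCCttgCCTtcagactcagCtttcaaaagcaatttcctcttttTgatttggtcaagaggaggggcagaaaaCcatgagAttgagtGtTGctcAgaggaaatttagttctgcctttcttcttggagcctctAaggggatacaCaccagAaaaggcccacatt
Klra8: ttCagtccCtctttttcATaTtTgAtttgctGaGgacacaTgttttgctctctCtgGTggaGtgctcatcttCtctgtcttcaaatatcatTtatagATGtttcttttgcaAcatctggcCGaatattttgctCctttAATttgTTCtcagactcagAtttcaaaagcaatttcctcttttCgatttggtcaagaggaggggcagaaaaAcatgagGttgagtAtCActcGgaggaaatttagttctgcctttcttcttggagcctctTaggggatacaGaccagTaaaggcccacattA
Klra9: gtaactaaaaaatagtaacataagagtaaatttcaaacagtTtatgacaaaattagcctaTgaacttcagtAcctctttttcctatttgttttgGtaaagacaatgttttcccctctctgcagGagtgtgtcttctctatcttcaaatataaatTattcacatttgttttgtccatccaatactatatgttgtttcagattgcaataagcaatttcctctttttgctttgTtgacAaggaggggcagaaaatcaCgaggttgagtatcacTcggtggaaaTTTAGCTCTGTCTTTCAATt
Klra3: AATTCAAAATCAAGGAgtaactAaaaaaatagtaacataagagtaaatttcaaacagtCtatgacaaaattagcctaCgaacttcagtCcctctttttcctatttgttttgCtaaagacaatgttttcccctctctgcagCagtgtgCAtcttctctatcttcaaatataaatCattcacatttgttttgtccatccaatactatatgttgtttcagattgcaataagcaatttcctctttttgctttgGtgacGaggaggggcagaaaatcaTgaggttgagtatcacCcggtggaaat
Klra4 and Klra8 shared 259 of 301 aligned columns (86.0%) and Klra9 and Klra3 shared 271 of 319 (85.0%), while Klra4 and Klra9 shared 51.5%. Klra8 has another annotated start, with a window at chr6:130129786-130130085 that shared 57.7% of aligned columns with Klra4. The windows printed for the pair of activating receptors were thus unlike those of the pair of inhibitory receptors. Members of both pairs were lower in aged than in young NK barcodes, and a link of the windows to these levels was not tested. The RUNX word TGTGGT, the T-box word GGTGTGA and the AP-1 word TGANTCA, searched on both strands, had 0 matches in these 4 windows. They occur in 16.9%, 3.96% and 7.93% of all 27025 promoter windows of that length.

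Among the other activating receptors, Klrk1 and Klrb1f were lower in aged than in young NK barcodes. Klrk1 encodes NKG2D, which binds stress-induced ligands, and had 663 CPM in aged+AA, 475 CPM in aged and 766 CPM in young. Its aged over young ratio was 0.620 (0.555 to 0.693), and 0.711 (0.631 to 0.799) without the mixed barcodes, and its aged+AA over aged ratio was 1.40 (1.23 to 1.59). Klrb1f, a receptor of the NKR-P1 family, had 119 CPM in aged+AA, 105 CPM in aged and 185 CPM in young, a ratio of 0.567 (0.448 to 0.716) for aged over young. Cd160, a receptor for MHC class I-like ligands and HVEM, was the member that was higher in aged than in young, at 1.77 (1.19 to 2.67) times from 36 UMIs in aged+AA, 74 in aged and 40 in young. Over the list of activating receptors, 1 of 10 genes tested was higher and 5 lower in aged than in young, against 7.01% higher and 7.76% lower of all genes tested, and the list median was 0.685 against 0.986 for all genes. Without the mixed barcodes 1 of 9 was higher and 4 lower, against 7.93% and 5.36% of 2370 genes tested there (13.3% either way, and 14.8% with all NK barcodes). Set against aged, aged+AA had 1 of 10 higher, Klra4, and 0 lower, with 8 above 1 and a median of 1.23, where 4.14% of all genes were higher and 4.47% lower (8.61% either way) and their median was 1.01. Leaving out the mixed barcodes, 4.01% of genes were higher and 4.81% lower in that comparison (8.82% either way).

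Klrd1 and Klrg1 stand on the list of inhibitory receptors outside the Ly49 family. Klrd1 encodes CD94, the partner chain of the NKG2 receptors, and stood at 1119 CPM in aged+AA, 1057 CPM in aged and 1081 CPM in young, an aged over young ratio of 0.978 (0.901 to 1.06). Klrg1, which binds cadherins and marks mature cells, had 204 CPM in aged+AA, 164 CPM in aged and 126 CPM in young, with aged over young ratios of 1.30 (1.04 to 1.64) and, without the mixed barcodes, 1.51 (1.19 to 1.91). Of 8 inhibitory receptor genes tested, 0 were higher and 2, Klra9 and Klra3, lower in aged than in young, with a median of 0.908, and 1 was higher and 1 lower, with a median of 1.06, without the mixed barcodes. In aged+AA over aged 2 of the 8, Klra9 and Klra1, were higher and 0 lower, with a median of 1.33, and 2 were higher and 1 lower, with a median of 1.19, without the mixed barcodes. All genes tested gave 7.01% higher and 7.76% lower for aged over young, and 4.14% and 4.47% for aged+AA over aged. The gate gene Ncr1, NKp46, was part of the rule and is given as a description only, at 820.4 CPM in aged+AA, 534 CPM in aged and 571 CPM in young.

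**Figure D2:**
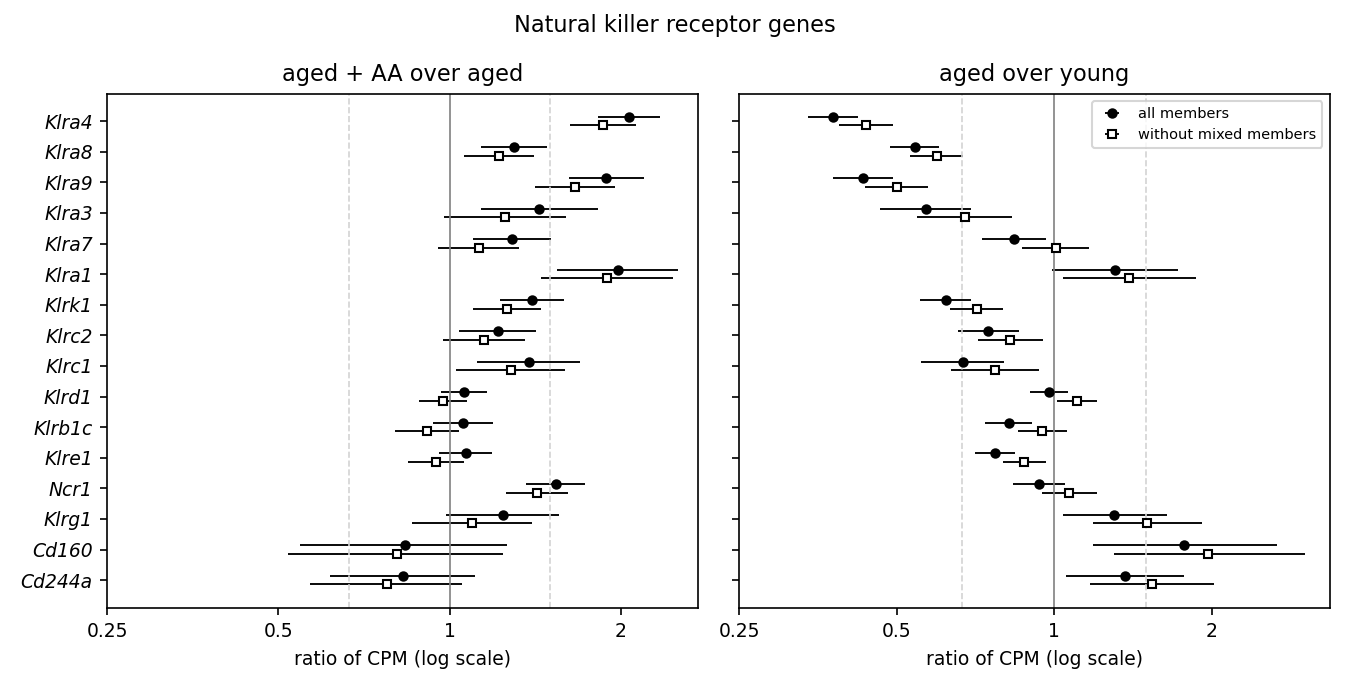
Ratio of CPM in summed NK barcodes (x axis, log scale) for 16 receptor genes, with aged+AA over aged on the left and aged over young on the right. Filled circles are all NK barcodes, open squares those without the mixed barcodes, bars the 95% counting intervals and dashed lines 1.5-fold. Klra4, Klra9 and Klra8 lie furthest left in aged over young, and Klra4, Klra1 and Klra9 furthest right in aged+AA over aged.

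Gzmb, Prf1, Cst7 and Fasl of the killing machinery were lower in aged than in young NK barcodes, and none of these 4 was past 1.5-fold without the mixed barcodes. Gzma had 13580.2 CPM in aged+AA, 12099 CPM in aged and 15153 CPM in young, ratios of 1.12 (1.09 to 1.15) for aged+AA over aged and 0.798 (0.780 to 0.817) for aged over young. Gzmb, granzyme B, which triggers apoptosis in the target, had 1307 CPM in aged+AA, 984 CPM in aged and 1660.4 CPM in young. It was lower in aged than in young at 0.593 (0.549 to 0.639) times, and at 0.698 (0.644 to 0.756) times without the mixed barcodes. Prf1 had 981 CPM in aged+AA, 742 CPM in aged and 1185 CPM in young, an aged over young ratio of 0.626 (0.573 to 0.684) and of 0.723 (0.658 to 0.794) without the mixed barcodes. For both genes the aged library was the lowest of the 3.

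Cst7 encodes cystatin F, an inhibitor of the cathepsins that activate granzymes, and had 169.9 CPM in aged+AA, 84.7 CPM in aged and 147 CPM in young. Its ratio was 2.01 (1.51 to 2.67) for aged+AA over aged and 0.575 (0.441 to 0.746) for aged over young. Without the mixed barcodes the aged over young ratio was 0.675 and the aged+AA over aged ratio 1.72. Ctsc, the cathepsin that activates granzymes, had 196 CPM in aged+AA, 147 CPM in aged and 197 CPM in young and an aged+AA over aged ratio of 1.33 (1.05 to 1.69), or 1.51 (1.15 to 1.97) without the mixed barcodes. Fasl, the death ligand, had 193 CPM in aged+AA, 164 CPM in aged and 257 CPM in young, with an aged over young ratio of 0.638 (0.526 to 0.771), or 0.765 (0.626 to 0.933) without the mixed barcodes. Of 14 granule genes tested of 23, 0 were higher and 4 lower in aged than in young (Gzmb, Prf1, Cst7 and Fasl), with 1 above 1 and a median of 0.727. With the mixed barcodes left out, 0 were lower and the median was 0.822. Set against aged, in aged+AA 1 gene, Cst7, was higher and 0 lower, 11 of 14 were above 1, and the median was 1.19, with 2 higher and 0 lower once the mixed barcodes were left out. The shares of all genes were 7.01% higher and 7.76% lower for aged over young, and 4.14% and 4.47% for aged+AA over aged.

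The chemokines Ccl3 and Ccl4 were higher in aged than in young NK barcodes. Ccl3 and Ccl4 encode the macrophage inflammatory proteins, which draw in other leukocytes. Ccl3 had 358 CPM in aged+AA, 403 CPM in aged and 138 CPM in young, so the aged library exceeded the young at 2.92 (2.42 to 3.54) times, and the aged+AA library stood near the aged at 0.889 (0.756 to 1.04) times. Ccl3 was seen in 22.8% of thinned aged+AA, 26.4% of thinned aged and 13.4% of thinned young NK barcodes, against 0.386%, 1.35% and 0 of thinned B cell barcodes, the last with an exact upper bound of 0.152%. Ccl4 had 1290.4 CPM in aged+AA, 1226 CPM in aged and 762 CPM in young, ratios of 1.05 (0.965 to 1.15) for aged+AA over aged and 1.61 (1.47 to 1.76) for aged over young. Ccl5, a chemokine of the same family, differed little, at 0.972 times for aged+AA over aged and 1.04 times for aged over young. Ifng, interferon gamma, had 208 CPM in aged+AA, 136 CPM in aged and 122 CPM in young, and its aged+AA over aged ratio of 1.53 (1.2 to 1.94) was 1.13 (0.879 to 1.46) without the mixed barcodes and 0.851 when the rule was applied to thinned barcodes. Of 6 chemokine and cytokine genes tested of 14, 2, Ccl3 and Ccl4, were higher and 0 lower in aged than in young, with 5 above 1 and a median of 1.24. With aged+AA over aged, 1, Ifng, was higher and 0 lower, and 0 were higher or lower without the mixed barcodes. Among all genes tested, 7.01% were higher and 7.76% lower for aged over young, and 4.14% and 4.47% for aged+AA over aged.

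The genes that receive cytokine signals were level or lower in aged NK barcodes. Ifngr1, a chain of the interferon gamma receptor, had 1027 CPM in aged+AA, 951 CPM in aged and 1702 CPM in young, an aged over young ratio of 0.559 (0.518 to 0.603) that was 0.648 without the mixed barcodes. Il12rb2, a chain of the interleukin 12 receptor, had 71.9 CPM in aged+AA, 74.9 CPM in aged and 129 CPM in young, an aged over young ratio of 0.582 (0.439 to 0.769). Stat4, which carries the interleukin 12 signal, had 234 CPM in aged+AA, 174 CPM in aged and 301 CPM in young and an aged over young ratio of 0.577 (0.481 to 0.692), or 0.677 (0.558 to 0.819) without the mixed barcodes. Il2rb, the shared beta chain for interleukins 2 and 15, had 799 CPM in aged+AA, 887 CPM in aged and 1101 CPM in young, under 1.5-fold in both comparisons. Of 9 cytokine receptor genes tested of 20, 0 were higher and 2, Ifngr1 and Il12rb2, lower in aged than in young, and 0 were higher and 1 lower in aged+AA than in aged, where 0 were higher or lower without the mixed barcodes. All genes tested gave 7.01% higher and 7.76% lower for aged over young, and 4.14% and 4.47% for aged+AA over aged.

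Transcription factors of the lineage did not all differ in the same direction between aged and young NK barcodes. Eomes, the T-box factor of the lineage, had 209.7 CPM in aged+AA, 157 CPM in aged and 267 CPM in young, an aged over young ratio of 0.587 (0.483 to 0.710). Id2, which holds back E proteins and is needed for these cells, had 1128 CPM in aged+AA, 1038 CPM in aged and 1992 CPM in young, a ratio of 0.521 (0.485 to 0.560). Klf2, a factor of quiescence and trafficking, had 2379 CPM in aged+AA, 1355 CPM in aged and 2632 CPM in young, ratios of 1.76 (1.63 to 1.89) for aged+AA over aged and 0.515 (0.483 to 0.548) for aged over young. Zeb2, a repressor that drives late maturation, ran opposite to them with 386 CPM in aged+AA, 406 CPM in aged and 227 CPM in young, a ratio of 0.951 (0.812 to 1.11) for aged+AA over aged and 1.78 (1.52 to 2.09) for aged over young.

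Without the mixed barcodes these aged over young ratios were 0.653 for Eomes, 0.581 for Id2, 0.580 for Klf2 and 1.94 for Zeb2, all still past 1.5-fold. Tbx21, T-bet, had 116 CPM in aged+AA, 98.0 CPM in aged and 76.4 CPM in young and differed by less than 1.5-fold in both comparisons. Of 16 factors tested of 27, 1 was higher and 4 lower (Eomes, Id2, Klf2 and Stat4) in aged than in young, with a median of 0.832, and 2 of 15 were higher and 3 lower without the mixed barcodes. In aged+AA over aged 1, Klf2, was higher, 0 were lower, and 12 of 16 were above 1. The shares of all genes were 7.01% higher and 7.76% lower for aged over young, and 4.14% and 4.47% for aged+AA over aged.

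**Figure D3:**
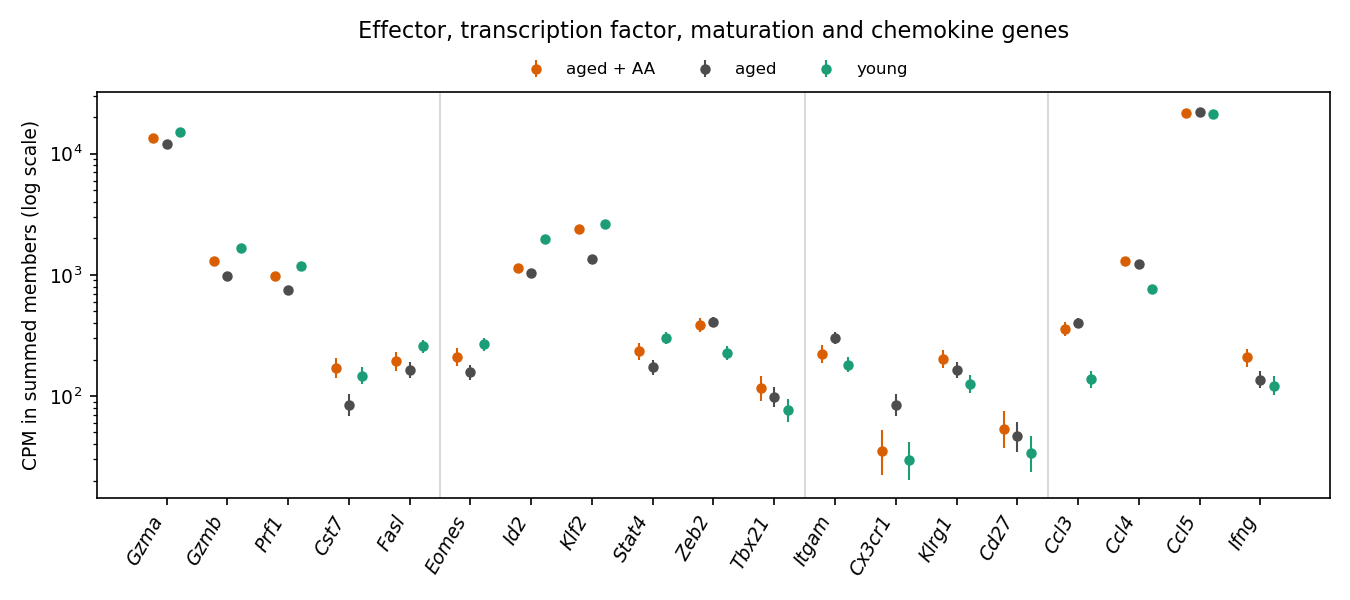
Level in summed NK barcodes in CPM (y axis, log scale) of 19 effector, transcription factor, maturation and chemokine genes in aged+AA, aged and young, with 95% Poisson intervals. The aged library is the lowest of the 3 for Gzmb, Prf1, Eomes, Id2 and Klf2, and the young library the lowest for Zeb2, Itgam, Ccl3 and Ccl4.

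Of the 2 genes that stage these cells, Itgam was higher in aged than in young, and the counts of Cd27 were too low to place it. Itgam had 145 UMIs in aged+AA, 338 in aged and 195 in young and 222 CPM in aged+AA, 301 CPM in aged and 182 CPM in young, ratios of 0.737 (0.602 to 0.898) for aged+AA over aged and 1.66 (1.39 to 1.99) for aged over young. Cd27 had 35 UMIs in aged+AA, 52 in aged and 36 in young and 53.6 CPM in aged+AA, 46.3 CPM in aged and 33.5 CPM in young, ratios of 1.16 (0.731 to 1.81) for aged+AA over aged and 1.38 (0.886 to 2.18) for aged over young, and both intervals held 1. The mixed barcodes changed neither call of Itgam, but without them the aged over young ratio of Cd27 was 1.58 (0.994 to 2.53). Of the 3'-end words of Itgam, 19.7% were shared with the overlapping predicted gene Gm49368.

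Cd27 UMIs per Itgam UMI came to 0.241 in aged+AA, 0.154 in aged and 0.185 in young. The ratio of these was 1.57 (0.948 to 2.57) for aged+AA over aged and 0.833 (0.514 to 1.36) for aged over young, and both intervals held 1. The aged+AA over aged ratio depended on the NK rule: its interval left out 1 with a rule of 1 UMI, at 1.68 (1.02 to 2.74), with the rule on thinned barcodes, at 2.31 (1.27 to 4.18), without barcodes with T cell UMIs, at 1.74 (1.01 to 2.95), and without dividing barcodes, at 1.74 (1.04 to 2.88), and it was 1.02 (0.529 to 2.01) without barcodes with a myeloid UMI. Without the mixed barcodes it was 1.54 (0.910 to 2.59), and the aged over young ratio was 0.956 (0.577 to 1.59). The aged over young ratio turned to 1.36 (0.709 to 2.57) without barcodes with a myeloid UMI. Sorted by detected UMIs, 11.1% (6.92 to 16.6) of aged+AA, 5.30% (2.93 to 8.74) of aged and 7.59% (4.93 to 11.1) of young NK barcodes held Cd27 without Itgam. Itgam without Cd27 was held by 41.7% (34.4 to 49.2) of aged+AA, 55.3% (49.1 to 61.4) of aged and 38.6% (33.2 to 44.2) of young NK barcodes.

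A class by detection depends on depth, and 43.3% of aged+AA, 33.7% of aged and 51.6% of young NK barcodes held neither gene. Thinned to 1000 UMIs, Itgam was seen in 18.7% (13.2 to 25.4) of aged+AA, 28.3% (22.9 to 34.2) of aged and 17.0% (13 to 21.7) of young NK barcodes. In a new draw with the mixed barcodes left out, the shares were 28.0% (21.2 to 35.6) in aged+AA, 28.0% (22.1 to 34.4) in aged and 20% (15.6 to 25.0) in young, so the thinned share gave no stable order of aged+AA and aged. In CD8 T cell barcodes (median depths 6625, 6051 and 5990 UMIs) the thinned share of Itgam was 0.100% in aged+AA, 0.659% in aged and 0.0545% in young. Cd27 was seen in 5.85% (2.84 to 10.5) of thinned aged+AA, 5.04% (2.71 to 8.46) of aged and 3.92% (2.04 to 6.75) of young NK barcodes, against 1.16%, 1.12% and 0.824% of thinned B cell barcodes.

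**Figure D4:**
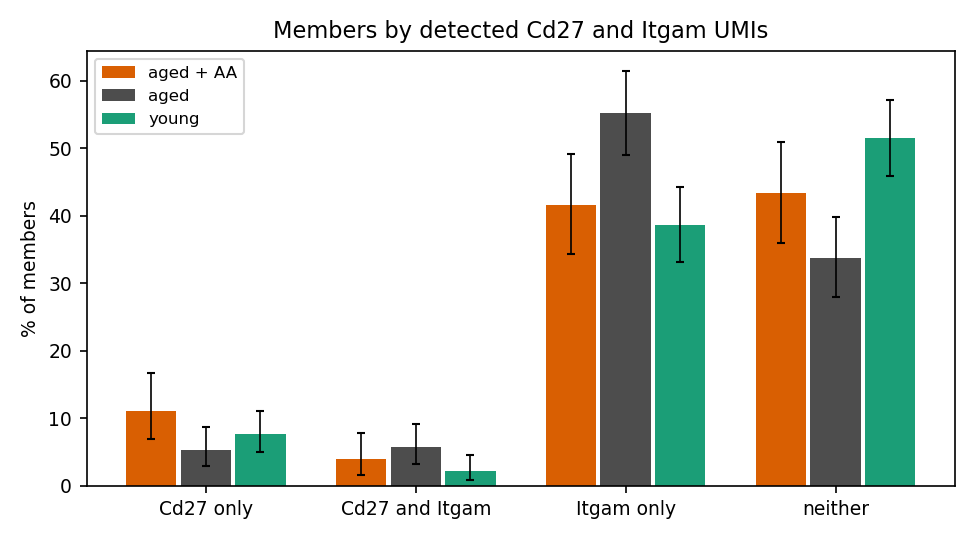
Percentage of NK barcodes (y axis) in each class by detected UMIs of Cd27 and Itgam, for aged+AA (180 barcodes), aged (264) and young (316), with exact 95% binomial intervals. Itgam without Cd27 is the largest class in aged, at 55.3%, while barcodes with neither gene are the largest class in aged+AA, at 43.3%, and in young, at 51.6%.

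Within each library, barcodes with Cd27 alone and barcodes with Itgam alone also differed in other maturation genes, though not all of these went the same way. Without the mixed barcodes, Cd27-only barcodes (20 in aged+AA, 13 in aged, 24 in young) were set against Itgam-only barcodes (71, 118 and 121). The other immature-stage genes summed to 2.32 times (2.01 to 2.67) the Itgam-only level in aged+AA, 3.88 times (3.41 to 4.41) in aged and 2.07 times (1.83 to 2.33) in young. The other mature-stage genes summed to 0.608 times (0.556 to 0.663) in aged+AA, 0.512 times (0.458 to 0.570) in aged and 0.803 times (0.75 to 0.859) in young. Tcf7, a factor of early stages, stood in the Cd27-only class at 8.99 times (3.38 to 27.9) the Itgam-only level in aged+AA, 10.1 times (4.17 to 25.4) in aged and 5.98 times (2.05 to 18.5) in young. Xcl1, the chemokine for cross-presenting dendritic cells, stood at 3.55 times in aged+AA, 10.7 times in aged and 6.90 times in young. Ly6c2, a gene of late stages, was at 0.206 times in aged+AA, 0.150 times in aged and 0.340 times in young. Klrg1 stood at 0.149 times (0.0299 to 0.455) in aged+AA and 0.0729 times (0.00183 to 0.415) in aged, and at 0.761 times (0.374 to 1.42) in young, where the interval held 1. Zeb2 stood at 0.0925 times in aged and 0.523 times in young, but at 0.846 times (0.537 to 1.29) in aged+AA. Against the sum of the mature-stage list, its member Ccl3 stood at 2.25 times (1.38 to 3.59) in young. Itgax of that list stood at 2.70 times (1.39 to 5.00) in aged.

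The remaining maturation genes did not all follow Itgam. Cx3cr1, the fractalkine receptor of late-stage cells, had 23 UMIs in aged+AA, 95 in aged and 32 in young and 35.2 CPM in aged+AA, 84.7 CPM in aged and 29.8 CPM in young. It was higher in aged than in young at 2.84 (1.88 to 4.38) times and lower in aged+AA than in aged at 0.416 (0.252 to 0.661) times. Without the mixed barcodes these ratios were 2.91 and 0.418 times, but Cx3cr1 was under the UMI minimum for a call there. Cma1, a mast cell chymase that mature natural killer cells of the mouse also express, had 387 CPM in aged+AA, 277 CPM in aged and 386 CPM in young, under 1.5-fold in both comparisons. Ctla2a, a cysteine protease inhibitor listed with the immature stage, had 370.4 CPM in aged+AA, 245 CPM in aged and 570.2 CPM in young, ratios of 1.51 (1.27 to 1.80) for aged+AA over aged and 0.430 (0.371 to 0.496) for aged over young. Cd7, also listed there, ran opposite with 243 CPM in aged+AA, 319 CPM in aged and 172 CPM in young, an aged over young ratio of 1.85 (1.55 to 2.22).

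Of 20 mature-stage genes, 4 were higher (Itgam, Zeb2, Cx3cr1 and Ccl3) and 3 lower (Gzmb, Klf2 and Id2) in aged than in young, with 11 above 1 and a median of 1.12. Once the mixed barcodes were left out, 6 of 19 were higher and 2 lower, against 7.93% and 5.36% of all genes, with 10 above 1 and a median of 1.21. Set against aged, in aged+AA 1, Klf2, was higher and 1, Cx3cr1, lower, and 2 were higher and 0 lower without the mixed barcodes, where Cx3cr1 fell under the UMI minimum. Of 8 immature-stage genes tested of 20, 2 were higher and 1 lower in aged than in young, and 1 was higher and 1 lower without the mixed barcodes. With aged+AA over aged, 1 was higher, Ctla2a, and 2 were lower, Ccr2 and Ly6e. Those 3 were at 1.35, 0.647 and 0.700 times without the mixed barcodes, where 0 genes were higher and 1 lower. With all NK barcodes, 7.01% of all genes were higher and 7.76% lower for aged over young, and 4.14% and 4.47% for aged+AA over aged.

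Ccl3, Ccl4, Cx3cr1, Klra4 and Klra9 were also compared within the class with an Itgam UMI. Among barcodes with an Itgam UMI and without the mixed ones (78 in aged+AA, 129 in aged, 128 in young), Ccl3 had an aged over young ratio of 4.13 (3.09 to 5.60), Ccl4 of 2.29 (2.00 to 2.63) and Cx3cr1 of 2.28 (1.28 to 4.26). Klra4 had an aged over young ratio of 0.491 (0.420 to 0.573) and an aged+AA over aged ratio of 1.62 (1.36 to 1.94) in this class, and Klra9 of 0.491 (0.409 to 0.588) and 1.69 (1.37 to 2.07). Gzmb stood at 1476 CPM in aged+AA, 1317 CPM in aged and 1347 CPM in young in this class, an aged over young ratio of 0.978 (0.871 to 1.10). Among barcodes without an Itgam UMI (92, 95 and 182), Gzmb had an aged over young ratio of 0.524 (0.462 to 0.593). Klra8 was at 0.622 (0.530 to 0.730) times for aged over young and Klra1 at 1.49 (1.06 to 2.08) times for aged+AA over aged in the class with Itgam, the second short of 1.5-fold.

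S100a6 and Crip1, 2 genes of cell movement, were higher in aged than in young NK barcodes. S100a6, a calcium-binding protein of activated and migrating cells, had 1352 CPM in aged+AA, 1866 CPM in aged and 846 CPM in young, ratios of 0.724 (0.669 to 0.784) for aged+AA over aged and 2.21 (2.04 to 2.39) for aged over young. Crip1, a LIM-domain protein of effector lymphocytes, had 877 CPM in aged+AA, 1339 CPM in aged and 769.6 CPM in young, ratios of 0.655 (0.594 to 0.722) for aged+AA over aged and 1.74 (1.60 to 1.90) for aged over young, the one for aged+AA over aged being 0.731 without the mixed barcodes. S1pr4, a sphingosine phosphate receptor, ran opposite with 96.4 CPM in aged+AA, 71.3 CPM in aged and 167 CPM in young, an aged over young ratio of 0.428 (0.324 to 0.559). S1pr5, the receptor for egress of these cells, had 104 CPM in aged+AA, 107 CPM in aged and 77.3 CPM in young, an aged over young ratio of 1.38 (1.04 to 1.85) or 1.53 (1.13 to 2.08) without the mixed barcodes.

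Of 17 trafficking genes tested of 21, 2 were higher and 1 lower in aged than in young, with 12 above 1 and a median of 1.30, where 7.01% of all genes were higher and 7.76% lower. Leaving out the mixed barcodes, 4 of 16 were higher and 1 lower, against 7.93% and 5.36% of all genes, with 9 above 1. In aged+AA over aged 0 were higher and 2 lower, with 3 above 1 and a median of 0.860. There 4.14% of all genes were higher and 4.47% lower. Of 15 migration and memory genes tested of 16, 4 were higher and 0 lower in aged than in young, and 0 were higher and 3 lower in aged+AA than in aged. With the mixed barcodes left out, 3 of 14 were higher in aged than in young, and 1 was higher and 0 lower in aged+AA than in aged. S100a4 and Lgals3 of that list, which myeloid cells also express, had aged over young ratios of 3.14 and 8.86, and 1.91 and 2.44 without the mixed barcodes. The summed level of the 16 myeloid genes was 471 CPM in aged+AA, 4348 CPM in aged and 623 CPM in young, and its part in these 2 ratios was not tested beyond that.

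Immediate early genes, which respond within minutes to stimulation or handling, did not all move one way, and Jun, Dusp2 and Cd69 had their lowest level in the aged library. Jun had 399.5 CPM in aged+AA, 193 CPM in aged and 300.0 CPM in young, ratios of 2.08 (1.73 to 2.50) for aged+AA over aged and 0.642 (0.538 to 0.765) for aged over young, the second being 0.700 (0.577 to 0.845) without the mixed barcodes. Dusp2, a phosphatase that ends MAP kinase signals, had 1362 CPM in aged+AA, 837 CPM in aged and 2207 CPM in young, ratios of 1.63 (1.48 to 1.79) for aged+AA over aged, or 1.43 (1.29 to 1.58) without the mixed barcodes, and 0.379 (0.351 to 0.409) for aged over young. Cd69, an early activation marker that holds lymphocytes in tissue, had 148 CPM in aged+AA, 67.7 CPM in aged and 99.7 CPM in young, and an aged+AA over aged ratio of 2.19 (1.61 to 3.00). Of 26 genes tested of 35, 2 were higher and 6 lower in aged than in young, with 8 above 1 and a median of 0.836, and without the mixed barcodes 1 of 25 was higher and 3 lower. Set against aged, in aged+AA 5 were higher and 1 lower, with 17 above 1 and a median of 1.31, and without the mixed barcodes 5 were higher, 0 lower and 20 of 25 above 1. Among all genes tested, 7.01% were higher and 7.76% lower for aged over young, and 4.14% and 4.47% for aged+AA over aged.

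Jun, Dusp2, Cd69 and Klf2 were also compared in other lymphocytes of these libraries. In CD8 T and B cell barcodes Jun had aged over young ratios of 0.878 and 0.537 and aged+AA over aged ratios of 1.64 and 2.46. Dusp2 had aged over young ratios of 0.458 and 0.271 and aged+AA over aged ratios of 1.61 and 1.82 there. Cd69 had aged over young ratios of 0.857 and 0.374 and aged+AA over aged ratios of 1.68 and 2.16. Klf2 had 0.853 and 0.527 for aged over young and 1.5 and 1.70 for aged+AA over aged. A difference between mice and a difference between the preparation of 3 libraries cannot be told apart with 1 library per group.

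Some genes of quiescence and of heat shock were also lower in aged than in young NK barcodes. Txnip, a thioredoxin-binding brake on glucose uptake, had 693 CPM in aged+AA, 554 CPM in aged and 1555 CPM in young, an aged over young ratio of 0.356 (0.325 to 0.391). Ddit4, an mTORC1 inhibitor, had 35.2 CPM in aged+AA, 32.1 CPM in aged and 107 CPM in young, a ratio of 0.299 (0.200 to 0.439). Tsc22d3, the glucocorticoid-induced leucine zipper, had 448 CPM in aged+AA, 303 CPM in aged and 661 CPM in young, a ratio of 0.459 (0.402 to 0.523). In CD8 T and B cell barcodes the aged over young ratios were 0.549 and 0.475 for Txnip, 0.185 and 0.288 for Ddit4, and 0.459 and 0.371 for Tsc22d3. Of 16 stress and quiescence genes tested of 18, 0 were higher and 7 lower in aged than in young, with 6 above 1, and 5 of 15 were lower without the mixed barcodes. In aged+AA over aged 1, Klf2, was higher and 0 lower. All genes tested gave 7.01% higher and 7.76% lower for aged over young, and 4.14% and 4.47% for aged+AA over aged.

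The chaperone Hsp90aa1 had 366 CPM in aged+AA, 321 CPM in aged and 639 CPM in young, an aged over young ratio of 0.502 (0.441 to 0.571). Hspe1, the co-chaperone of mitochondrial Hsp60, had 217 CPM in aged+AA, 188 CPM in aged and 331 CPM in young, a ratio of 0.569 (0.477 to 0.676). Of 10 heat shock genes tested of 16, 0 were higher and 4 lower in aged than in young, 0 were above 1, and the median was 0.710, with 4 lower without the mixed barcodes as well. In CD8 T and B cell barcodes the aged over young ratios were 0.863 and 0.676 for Hsp90aa1 and 0.846 and 0.785 for Hspe1. With aged+AA over aged, 0 of the 10 genes were higher or lower. The shares of all genes were 7.01% higher and 7.76% lower for aged over young, and 4.14% and 4.47% for aged+AA over aged.

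**Figure D5:**
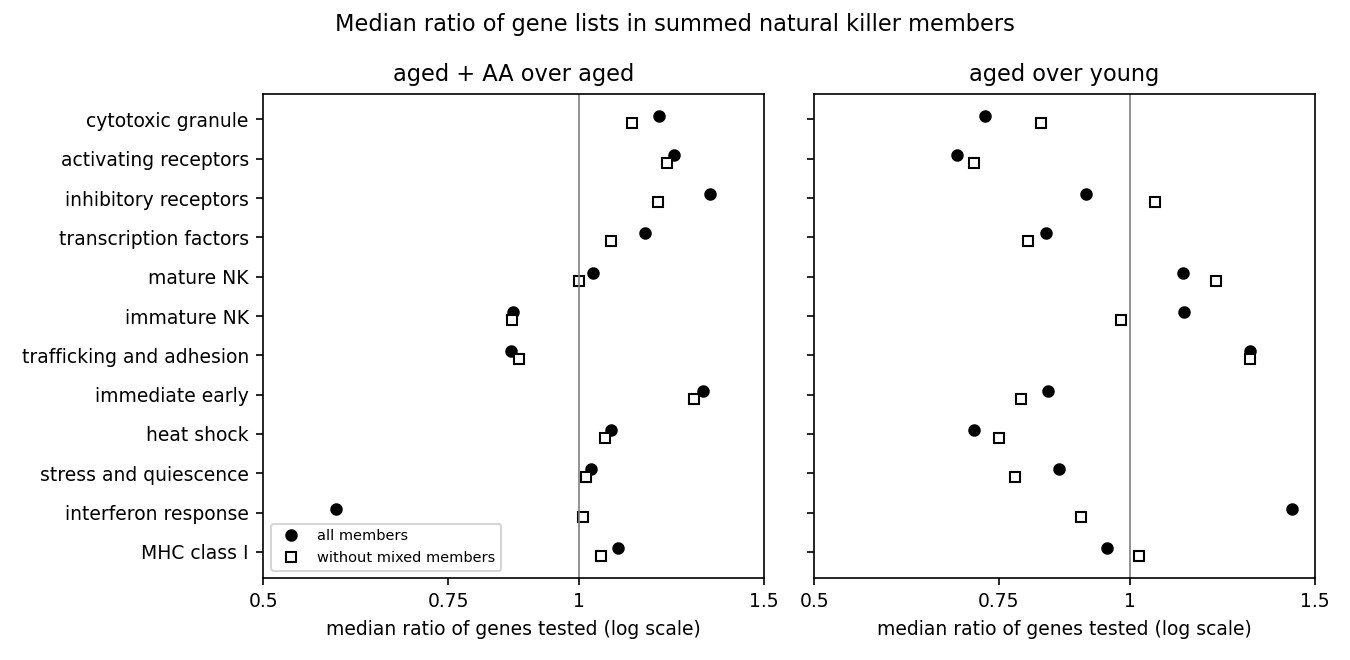
Median ratio of the tested genes of 12 lists (x axis, log scale) in summed NK barcodes, with aged+AA over aged on the left and aged over young on the right, for all NK barcodes (filled circles) and without the mixed barcodes (open squares). Heat shock, granule and activating receptor lists lie left of 1 in aged over young, and the interferon list is the one whose position depends most on the mixed barcodes.

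The largest aged over young ratios belonged to genes of other blood cells. Ranked by the interval bound nearest to 1, the 8 genes furthest higher in aged than in young were Lyz2, S100a9, S100a8, Il1b, Cxcl2, Ifitm2, Ifitm3 and Retnlg, known from neutrophils and monocytes. Ifitm3 had 25 UMIs in aged+AA, 540 in aged and 4 in young, of which 1 UMIs in aged+AA, 41 in aged and 1 in young remained without the mixed barcodes. Ifi27l2a, an interferon-induced gene, had 22 UMIs in aged+AA, 515 in aged and 16 in young, and 20 UMIs in aged+AA, 80 in aged and 16 in young without them. Of 13 interferon response genes tested of 39, 6 were higher and 1 lower in aged than in young, with a median of 1.43, and without the mixed barcodes 6 were tested, 0 were higher or lower and the median was 0.898. Among all genes tested, 7.01% were higher and 7.76% lower for aged over young, and 4.14% and 4.47% for aged+AA over aged. In aged+AA over aged 0 were higher and 7 lower, and with the mixed barcodes left out 0 were higher and 1 lower, the medians being 0.586 and 1.01. An interferon response of natural killer cells therefore cannot be told apart here from RNA of other cells in the same barcodes.

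The 8 genes furthest lower in aged than in young were Spp1, Txnip, Dusp2, Klra4, Ddit4, Socs1, Tmem37 and Sesn1. Spp1, osteopontin, had 14 UMIs in aged+AA, 19 in aged and 84 in young, but 84.5% of the young UMIs came from 1 barcode. Socs1, a brake on cytokine signalling, had 56.6 CPM in aged+AA, 35.7 CPM in aged and 113 CPM in young, a ratio of 0.316 (0.215 to 0.456). Tmem37, a membrane protein, had 91.8 CPM in aged+AA, 43.7 CPM in aged and 133 CPM in young, ratios of 2.10 (1.42 to 3.13) for aged+AA over aged and 0.328 (0.232 to 0.456) for aged over young, and its UMIs came from 52 aged+AA, 44 aged and 89 young barcodes. In aged+AA over aged, the 8 genes furthest higher included Klra4, Jun, Cdkn2aip, Klf2, Klra9, Cd69 and Klra1, 3 of them Ly49 receptors, and the 8 furthest lower were myeloid genes led by Lyz2, S100a8 and S100a9. Cdkn2aip, a regulator of the p53 pathway, had 109 CPM in aged+AA, 45.5 CPM in aged and 66.2 CPM in young, a ratio of 2.39 (1.65 to 3.50).

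Xdh, xanthine dehydrogenase of purine breakdown, was among the 8 genes furthest higher in aged than in young once the mixed barcodes were left out. It had 55.1 CPM in aged+AA, 125 CPM in aged and 40.1 CPM in young over all NK barcodes, ratios of 0.442 (0.297 to 0.641) for aged+AA over aged and 3.11 (2.20 to 4.49) for aged over young. It was seen in 28 aged+AA, 83 aged and 36 young barcodes, so the aged level was spread over many of them. Free RNA would supply 0.335 (aged+AA), 1.24 (aged) and 0.211 (young) CPM at the share of the median NK barcode.

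Dividing NK barcodes were few. With 5 or more UMIs over 9 cell division genes, there were 0 of 180 in aged+AA (exact upper bound 2.03%), 6 of 264 in aged (2.27%, 0.839 to 4.88) and 1 of 316 in young (0.316%, 0.00801 to 1.75). The upper bound for aged+AA lay above the lower bound for aged, and a difference between these 2 libraries was not tested. Of the 6 aged barcodes 5 were not mixed, and the 6 held 329 of the 364 such UMIs of the aged NK barcodes, and all 6 had Gzma and Gzmb UMIs, at a median depth of 9660.5 UMIs. Mki67, the Ki-67 antigen, had 2 UMIs in aged+AA, 71 in aged and 0 in young. The depth of these barcodes was above the 3338 UMIs of the median aged NK barcode, and whether any was a doublet was not tested one by one.

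Genes tied to the title of the series differed by less than 1.5-fold between aged+AA and aged. The title names Myh9, the heavy chain of non-muscle myosin IIA, which had 351 CPM in aged+AA, 451 CPM in aged and 305 CPM in young in NK barcodes. Its ratios were 0.777 (0.662 to 0.910) for aged+AA over aged and 1.48 (1.29 to 1.71) for aged over young, under 1.5-fold with all NK barcodes. Leaving out the mixed barcodes, the aged over young ratio was 1.56 (1.35 to 1.82), just past it. In CD8 T and B cell barcodes the Myh9 ratios were 1.24 and 1.52 for aged over young and 0.792 and 0.793 for aged+AA over aged. Of 8 genes of non-muscle myosin and its regulators tested of 11, 0 were higher or lower in either comparison with all NK barcodes. All genes tested gave 7.01% higher and 7.76% lower for aged over young, and 4.14% and 4.47% for aged+AA over aged.

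Ascorbate enters cells through Slc23a1 and Slc23a2, and it is a cofactor of the TET and lysine demethylase enzymes. Slc23a2 had 3 UMIs in aged+AA, 8 in aged and 12 in young and Slc23a1 had 0 UMIs in aged+AA, 0 in aged and 1 in young, too few for a ratio. Tet2, a DNA demethylation enzyme, had 44.4 CPM in aged+AA, 56.2 CPM in aged and 53.1 CPM in young, ratios of 0.791 (0.491 to 1.25) for aged+AA over aged and 1.06 (0.727 to 1.54) for aged over young. Of 10 ascorbate-related genes tested of 28, 3 were higher and 1 lower in aged than in young, against 7.01% and 7.76% of all genes, and 4 of 9 were higher and 0 lower without the mixed barcodes. For aged+AA over aged, 0 were higher or lower, and the median was 0.952. Of 15 MHC class I genes tested of 16, 1 was higher and 0 lower in aged than in young, and 0 were higher or lower in aged+AA over aged. The shares of all genes were 7.01% higher and 7.76% lower for aged over young, and 4.14% and 4.47% for aged+AA over aged.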

How the data were processed

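Each library was made with the Chromium Single Cell 3' v3 kit from mononuclear cells separated over lymphocyte separation medium, per the labels' protocols. The deposited values were raw UMI counts per gene and barcode for 32285 features, and the file headers name Cell Ranger 4. The build mm10 and Seurat 3.1.0 stand in the submitters' processing notes. Total depths were 80424480 (aged+AA), 94944551 (aged) and 64496639 (young) UMIs, and 11713, 10204 and 9147 barcodes passed the limits. Groups came from the labels.

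Barcodes were selected, summed and scaled with Python 3.11.15, numpy 2.4.6, scipy 1.17.1 and pandas 2.3.3. NK barcodes and gene lists were chosen with earlier results of these data known. Doublets were not removed in the values given; Scrublet in scanpy 1.11.5 predicted 486, 445 and 371 of the kept barcodes as doublets (aged+AA, aged, young), 2, 11 and 1 of them NK. Free RNA was the sum of barcodes ranked 45001 to 90000 by UMIs, and its share of the median NK barcode was set by haemoglobin. A CD8 T cell barcode needed 2 or more UMIs of Cd8a and Cd8b1, a Cd3 UMI, 0 of Cd4, under 2 of the NK receptor genes and at most 1 of Cd79a. Shares of barcodes with a UMI were compared after thinning to 1000 UMIs, leaving out 9, 6 and 10 shallower NK barcodes.

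Named genes were, per comparison, the 8 each way by the ratio bound nearest to 1 among genes with 50 or more UMIs in the higher library (leaving out sex-linked, clone-named, ribosomal, mitochondrial, haemoglobin and antigen receptor genes), plus the rule's genes, Cd27, Itgam, Myh9, and of each list the 4 with the most UMIs and the 2 with the largest ratio each way. Other genes of the Ly49, maturation and ascorbate lists, and Xdh, were chosen after their values were seen. 1 gene that the rule names is not reported here.

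Tested on simulated counts of 2682 genes, genes set to folds of 2, 4, 0.5 and 0.25 came back with median aged over young ratios of 2.02, 4.13, 0.491 and 0.254, and aged+AA over aged ratios of 2.03, 4.10, 0.494 and 0.237. Promoters were aligned with Biopython 1.88, and figures were drawn with matplotlib 3.10.9. Of the feature IDs, 32158 matched the GENCODE M21 annotation of GRCm38. Alternatives covered the NK rule, barcode limits, doublets, scaling, free RNA and the gene minimum.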

Additional observations from a re-analysis of the deposited data

How the results depend on the processing

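No paired analysis was possible because each group is 1 library. Limits are 1 library per group, unknown numbers of mice, and free RNA and mixed barcodes that differ between libraries. The NK share ratio for aged over young, 0.749 as reported, was 0.380 with at most 5% mitochondrial UMIs, 0.226 without any NK barcode holding a myeloid UMI and 0.969 among T, B and NK barcodes, and the one for aged+AA over aged, 0.594 as reported, was 1.80 without those with a myeloid UMI. The 0.226 and 1.80 left out NK barcodes only, with the denominators of all kept barcodes unchanged. Cd27 per Itgam, aged over young, was 1.36 without barcodes with a myeloid UMI. For aged over young, 188 genes were higher and 208 lower. The higher count was 122 with the rule on thinned barcodes, 98 without barcodes with a myeloid UMI, 607 from 60 UMIs, 35 from 400 UMIs and 49 at 2-fold, and the lower count 449 from 60 UMIs, 87 from 400 UMIs, 29 at 2-fold and 127 without the mixed barcodes. For aged+AA over aged, 111 were higher and 120 lower. The higher count was 174 without barcodes with a myeloid UMI, 375 from 60 UMIs, 25 from 400 UMIs and 12 at 2-fold, and the lower count 185 with a rule of 1 UMI, 72 without barcodes with a myeloid UMI, 512 from 60 UMIs, 21 from 400 UMIs and 35 at 2-fold.

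Leaving out mixed barcodes, or cycling ones, was added after the data were seen. Some values turned direction, and the cause was not tested. Without barcodes with a myeloid UMI and without mixed barcodes, aged over young became 0.746 and 0.898 for the interferon median, 0.479 and 0.417 for the myeloid median and 0.924 and 0.940 for Ctss, and aged+AA over aged became 1.10 and 1.01, and 1.17 and 1.33, for these medians. The interferon median, aged over young, was also 0.961 without barcodes with T cell UMIs and 0.931 without doublets. For aged+AA over aged, a rule of 3 UMIs, no myeloid UMI and no mixed barcodes gave 1.22, 1.62 and 1.34 for the B cell median, 1.22, 2.09 and 1.67 for Cd74, 1.21, 1.63 and 1.27 for H2-Aa, and 1.43, 1.72 and 1.56 for H2-Ab1. The rule on thinned barcodes gave 1.00 for the cell cycle median, 1.11 for Ctss, 0.851 for Ifng and 1.2 for Nr4a1. Igkc, aged over young, was 0.240 after free RNA was subtracted. Without cycling barcodes Stmn1 was 1.41 for aged+AA over aged and 0.607 for aged over young, and the cell cycle median was 1.28 for aged+AA over aged. Of 386 gene ratios, 261 stayed within the counting interval of the reported ratio without the mixed barcodes, and 384 with CPM that left out ribosomal and mitochondrial genes.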

Other observations

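Signal transducers and B cell transcripts were measured in the same NK barcodes. Tyrobp and Fcer1g, the adaptors through which activating receptors signal, were level: Tyrobp had 2737 CPM in aged+AA, 2544 CPM in aged and 2578 CPM in young, and Fcer1g had 3387 CPM in aged+AA, 3103 CPM in aged and 3327 CPM in young. Of 11 signalling adaptor genes tested of 14, 2 were higher and 0 lower in aged than in young, 0 of 10 were so without the mixed barcodes, and 0 were higher or lower in aged+AA over aged. Among all genes tested, 7.01% were higher and 7.76% lower for aged over young, and 4.14% and 4.47% for aged+AA over aged. Igkc, the immunoglobulin kappa constant region of B cells, had 197 CPM in aged+AA, 141 CPM in aged and 29.8 CPM in young in NK barcodes, where free RNA would supply 179 (aged+AA), 151 (aged) and 18.5 (young) CPM at the share of the median NK barcode. Vim, vimentin, had 1030.2 CPM in aged+AA, 754 CPM in aged and 839 CPM in young, an aged+AA over aged ratio of 1.37 (1.23 to 1.51), or 1.58 (1.41 to 1.77) without the mixed barcodes.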
